A study of Mus musculus with 4 samples.

Results

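Cells with transcripts of the mature absorptive epithelium were looked for among sorted cells of the 8th section of the mouse small intestine (Si8). They were chosen by 4 genes of mature enterocytes, Apoa1, Apoa4, Sis and Alpi. A cell was a member when these genes together reached 10 unique molecular identifiers (UMIs, counted single RNA molecules) per 10000 of its UMIs and at least 2 of them were detected. Only barcodes in which 500 or more genes were seen, and whose mitochondrial share did not exceed 20%, were kept. Of these, 33 of 1509 in Si8 replicate 1 and 46 of 2237 in Si8 replicate 2 met the rule. That made 79 members among 3746 kept Si8 cells and 10522 kept cells in the series.

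All 4 libraries, 2 of Si8 and 2 of the distal colon (DC), are labelled as goblet cells and came from RedMUC298trTg mice aged 6 to 8 weeks, whose mCherry signal served to sort goblet cells. Live cells were sorted by the presence or absence of mCherry. The labels do not state which of these fractions went into a library or how many mice stood behind it. P-values therefore measure only the spread between these samples, which may be technical.

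Enterocytes are the absorptive cells of the villus. Their apical membrane, the brush border, carries enzymes that finish the digestion of sugars and peptides and transporters that take up the products, and absorbed fat is packed into lipoproteins inside the cell. In the distal small intestine they also recover bile acids, through an apical uptake carrier, a binding protein in the cytosol and a basolateral exporter.

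The sequences just before the transcription starts of 5 genes that lead the description are shown for reference, 3 of them rule genes (Apoa1, Sis, Alpi) and the other two bile acid genes (Fabp6, Slc10a2). Each line gives the 250 bases before a RefSeq start on GRCm38.p6, 5′ to 3′ on the gene's strand, with motif matches in capitals. Apoa1 lies at chr9:46228380-46228629 (+), Sis at chr3:72967864-72968113 (-), Alpi at chr1:87101607-87101856 (-), Fabp6 at chr11:43601563-43601812 (-) and Slc10a2 at chr8:5105288-5105537 (-).
Apoa1: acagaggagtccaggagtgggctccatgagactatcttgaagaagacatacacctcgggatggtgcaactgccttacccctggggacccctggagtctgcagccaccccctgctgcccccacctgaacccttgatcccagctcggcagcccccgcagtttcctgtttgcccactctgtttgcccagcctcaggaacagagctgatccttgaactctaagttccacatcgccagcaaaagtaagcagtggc
Sis: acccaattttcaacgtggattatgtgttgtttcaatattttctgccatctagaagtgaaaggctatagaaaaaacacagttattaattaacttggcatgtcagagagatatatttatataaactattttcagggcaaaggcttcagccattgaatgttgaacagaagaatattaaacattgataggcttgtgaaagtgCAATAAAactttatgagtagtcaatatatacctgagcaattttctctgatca
Alpi: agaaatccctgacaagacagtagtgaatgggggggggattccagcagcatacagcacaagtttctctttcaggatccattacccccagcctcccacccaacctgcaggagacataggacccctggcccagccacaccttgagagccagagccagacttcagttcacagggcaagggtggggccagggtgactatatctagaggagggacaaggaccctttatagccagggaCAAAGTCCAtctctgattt
Fabp6: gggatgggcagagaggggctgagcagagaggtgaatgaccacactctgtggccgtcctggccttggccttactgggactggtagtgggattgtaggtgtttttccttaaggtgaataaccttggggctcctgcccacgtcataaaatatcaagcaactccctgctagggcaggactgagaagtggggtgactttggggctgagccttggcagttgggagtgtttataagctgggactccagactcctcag
Slc10a2: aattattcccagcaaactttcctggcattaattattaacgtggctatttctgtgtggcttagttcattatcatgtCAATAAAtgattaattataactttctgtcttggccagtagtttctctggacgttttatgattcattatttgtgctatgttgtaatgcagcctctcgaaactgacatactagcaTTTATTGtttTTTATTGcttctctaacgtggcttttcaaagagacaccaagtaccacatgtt
Both strands were searched for CAAAGTCCA, a motif of the nuclear receptor HNF4. The motif searched for zinc finger factors of the small intestine was AGATAAG. For the homeobox factors of the CDX family the letters TTTATTG were searched, and as a separate motif of this family the letters TTTATGG. In Alpi the capitals mark CAAAGTCCA from 19 to 11 bases before the start, a match held by 0.384% of all 32851 windows of this length. In Sis they mark TTTATTG on the other strand from 52 to 46 bases before the start, and in Slc10a2 3 matches to TTTATTG, a motif that 4.204% of all windows hold. No letters matched in the windows of Apoa1 and Fabp6. Of 25 rule, marker and leading genes looked up, 20 had a window. TTTATTG was found for 3 of them (Sis, Slc10a2, Upp1), AGATAAG for 1 (Slc7a9, against 2.74% of all windows) and TTTATGG for 0 (against 2.43%). A match describes letters and does not show binding.

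Members made up 2.19% of kept cells in Si8 replicate 1 (exact Clopper-Pearson 95% interval 1.51% to 3.06%) and 2.06% in Si8 replicate 2 (1.51% to 2.73%). The intervals overlap, and they cover counting error only. In DC the same rule found 0 of 1859 and 0 of 4917 kept cells, which allows shares of up to 0.161% and 0.0610% by the rule of 3 counts over the total. Cells just below the threshold were looked up among those with at least 2 rule genes detected. The 3 nearest had 7.84, 8.04 and 8.24 rule UMIs per 10000 in replicate 1 and 9.22, 9.30 and 9.63 in replicate 2. The 3 members nearest above it had 10.2, 11.1 and 11.4 in replicate 1 and 10.1, 10.5 and 11.4 in replicate 2. A further 18 cells of replicate 1 and 0 of replicate 2 reached 10 with 1 detected gene and were not members. Among the other kept cells, 67.5% and 58.0% had no UMI of a rule gene.

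The 2 libraries' members differed from each other in depth and RNA makeup, and those of Si8 replicate 1 stood apart. Their median was 5958 UMIs and 1733 genes, against 18032 UMIs and 3136 genes in the other kept cells. In replicate 2 it was 20620.5 UMIs and 3748 genes, against 21210.0 and 3661. Under 10000 UMIs were 26 of the 33 members of replicate 1 and 9 of the 46 of replicate 2. Malat1, a nuclear RNA, stood at 45788 CPM (counts scaled to a common total over the summed cells) in members and 11765 in other cells of replicate 1, and at 8215 and 5528 in replicate 2. Transcripts of 84 ribosomal protein genes took 4.37% of member UMIs against 14.2% in replicate 1, and 12.03% against 18.4% in replicate 2. Median mitochondrial shares were 2.24% against 2.88% and 5.61% against 3.64%. Of the 18 and 40 cells with the highest doublet scores in these libraries, 0 and 0 were members. The 2 Si8 libraries shared 1 kept barcode, which was no member, and 1 member of each shared its barcode with a DC cell. The part of depth and RNA makeup in the results on members was not tested, apart from comparisons of cells under 10000 UMIs and of cells thinned to 2000 UMIs.

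The rule sum came mostly from Apoa1, the main protein of high-density lipoprotein (ENSMUSG00000032083, chromosome 9, 46228580 to 46230466, GENCODE M21 on GRCm38). Apoa1 gave 86.9% of rule UMIs in replicate 1 and 60.9% in replicate 2 and was detected in 33 of 33 and 46 of 46 members. Sis, the sucrase-isomaltase of the brush border (ENSMUSG00000027790, chromosome 3, 72888557 to 72967863), gave 11.6% and 37.8% and was detected in 28 and 46 members. Alpi, the intestinal alkaline phosphatase, was detected in 14 and 20 members, and Apoa4, an apolipoprotein of chylomicrons, in 4 and 1. Apoa1 exceeded Sis in 28 members of replicate 1 and 22 of replicate 2, and Sis exceeded Apoa1 in 5 and 24. The rule sum per 10000 ran from 10.2 to 687 with a median of 56.1 in replicate 1, and from 10.1 to 701 with a median of 18.1 in replicate 2. It reached 100 in 9 and 4 members and stayed under 20 in 14 and 26, so many members lay near the threshold. As plain counts, members held from 5 to 452 rule UMIs with a median of 35 in replicate 1. In replicate 2 they held from 9 to 661 with a median of 42.5, so the membership of some cells rested on few molecules.

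The marker check gave a divided answer. Enterocyte markers outside the rule were high. Fabp6, the ileal bile acid binding protein, stood at 29092 against 1452 CPM in replicate 1 and 47788 against 3079 in replicate 2, members against other kept cells. Mep1a, a subunit of the brush border protease meprin, stood at 249 against 10.5 CPM in replicate 1 and 284 against 23.2 in replicate 2. Here and below, values of Si8 replicate 1 come before those of replicate 2. For both genes the summed members lay above the summed other cells in both libraries. Single cells overlapped, as Fabp6 reached 459 and 771 UMIs per 10000 in other cells and fell to 2.07 and 6.59 in members. After each cell had been thinned to 2000 UMIs, Mep1a was seen in 10 of 33 and 18 of 46 members, against 1.83% and 3.56% of other cells. Without thinning it was seen in 17 and 44 members and in 8.06% and 21.2% of other cells. Fabp1, the liver-type fatty acid binding protein of the more proximal intestine, was nearly absent, at 0 and 2.08 CPM in members. Immune markers summed to 7.205 and 1.04 CPM and those of stroma and endothelium to 0 and 2.08 CPM, and Ptprc, the common leukocyte antigen, was seen in 0 of 33 and 0 of 46 members.

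Genes of secreted mucus, however, were abundant in members too. The goblet sum, made of Muc2, Tff3, Zg16 and Fcgbp, had a median of 2180 UMIs per 10000 in members and 1869 in other cells of replicate 1. In replicate 2 the medians were 728 and 759. Muc2, the gel-forming mucin, stood at 12896 against 9719 and 5475 against 6669.6 CPM, and Tff3, a trefoil peptide secreted with mucus, at 85301 against 75689 and 36508 against 46252 CPM. For the sum and for both of these genes, members were above the other cells in replicate 1 and below them in replicate 2. Fcgbp was higher in members in both libraries, at 27503 against 10276.5 and 7742 against 6300 CPM. Zg16 was lower in both, at 49009 against 58020 and 34070 against 44045 CPM. A goblet sum of 1000 or more was found in 23 of 33 and 16 of 46 members, and one under 100 in 3 and 9. The cells are therefore called here by their rule, as members. Apoa1 was detected in all 33 and all 46 of them, and Sis in 28 and 46. Whether their goblet transcripts came from the cell itself, from a second cell in the droplet or from free RNA was not tested.

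Fabp6 and the goblet sum were unevenly spread over members. Fabp6 ran from 2.07 to 788 UMIs per 10000 with a median of 199 in replicate 1, and from 6.59 to 1294 with a median of 458 in replicate 2. In replicate 1, 13 members had a goblet sum of 3000 or more, and 11 of those had fewer than 100 Fabp6 UMIs per 10000. The other 20 members of replicate 1 had at least 123. In replicate 2, 3 members had a goblet sum of 3000 or more and 2 of these had Fabp6 under 100, while the other 43 members had at least 110.4. The limits of 3000 and 100 were chosen after the values were seen. Both quantities are shares of 1 cell's UMIs, so a higher goblet sum leaves less room for Fabp6. In all 13 and all 3 of the goblet-richest members Apoa1 exceeded Sis, and 11 and 1 of them had under 10000 UMIs. Over all members, the goblet sum had medians of 2533 and 1033 where Apoa1 exceeded Sis and of 578 and 374 where Sis exceeded Apoa1.

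**Figure D1:**
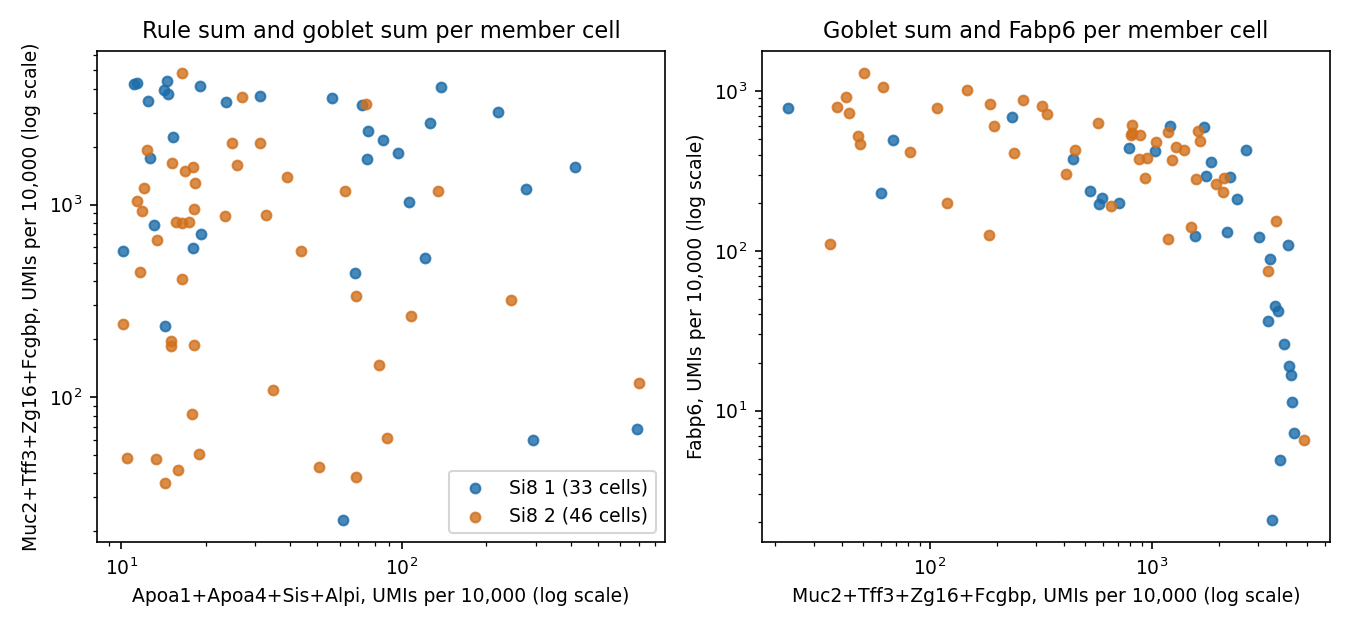
Each point is 1 of the 33 members of Si8 replicate 1 (blue) or 46 of Si8 replicate 2 (orange), in UMIs per 10000 on log axes. The left panel sets the rule sum against the goblet sum, and the right panel the goblet sum against Fabp6, where points with Fabp6 under 100 are seen at goblet sums of 3000 and above.

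Against all other kept Si8 cells, ileal bile acid, peptide digestion and transport genes were high in members and Paneth cell genes were low. Genes were counted as measured when their mean over the 4 sums was at least 20 CPM, and folds carry 10 CPM added to both sides. Of 4593 measured genes outside the rule, 334 (7.27%) were at least 2-fold higher in members in both libraries and 189 (4.11%) at least 2-fold lower. The rule chose the members on these same cells, so the contrast is a description and has no test. The median log2 fold over all measured genes was 0.03, and -0.08 with TMM scaling, which gave 279 higher and 219 lower. Si8 replicate 1 alone gave 616 genes higher and 798 lower, and replicate 2 alone 421 and 217. Among cells under 10000 UMIs on both sides, a comparison chosen after the data had been seen, 291 genes were higher and 198 lower, of which 207 and 76 were also among those of all cells.

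The gene with the highest mean fold was Anpep, aminopeptidase N of the brush border (ENSMUSG00000039062, chromosome 7, 79821803 to 79861059). It stood at 1488 against 16.1 CPM in replicate 1 and 642 against 14.9 in replicate 2, log2 folds of 5.84 and 4.71. Tmigd1, an adhesion protein of microvilli, followed with 832 against 6.71 CPM in replicate 1 and 487 against 6.89 in replicate 2. Enpep, aminopeptidase A, stood at 450.3 against 14.4 and 290.0 against 21.7 CPM. For each of these 3 genes the fold was larger in replicate 1 than in replicate 2. A further 16 of the 20 highest genes had mean log2 folds from 3.45 to 4.82, and were Slc10a2, Upp1, Clca4b, Fabp6, Dpep1, Slc51b, Slc13a1, Slc51a, Mep1b, Maf, Spink1, Slc34a2, Slc5a1, Cyp4f14, Prss30 and Slc7a9.

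**Figure D2:**
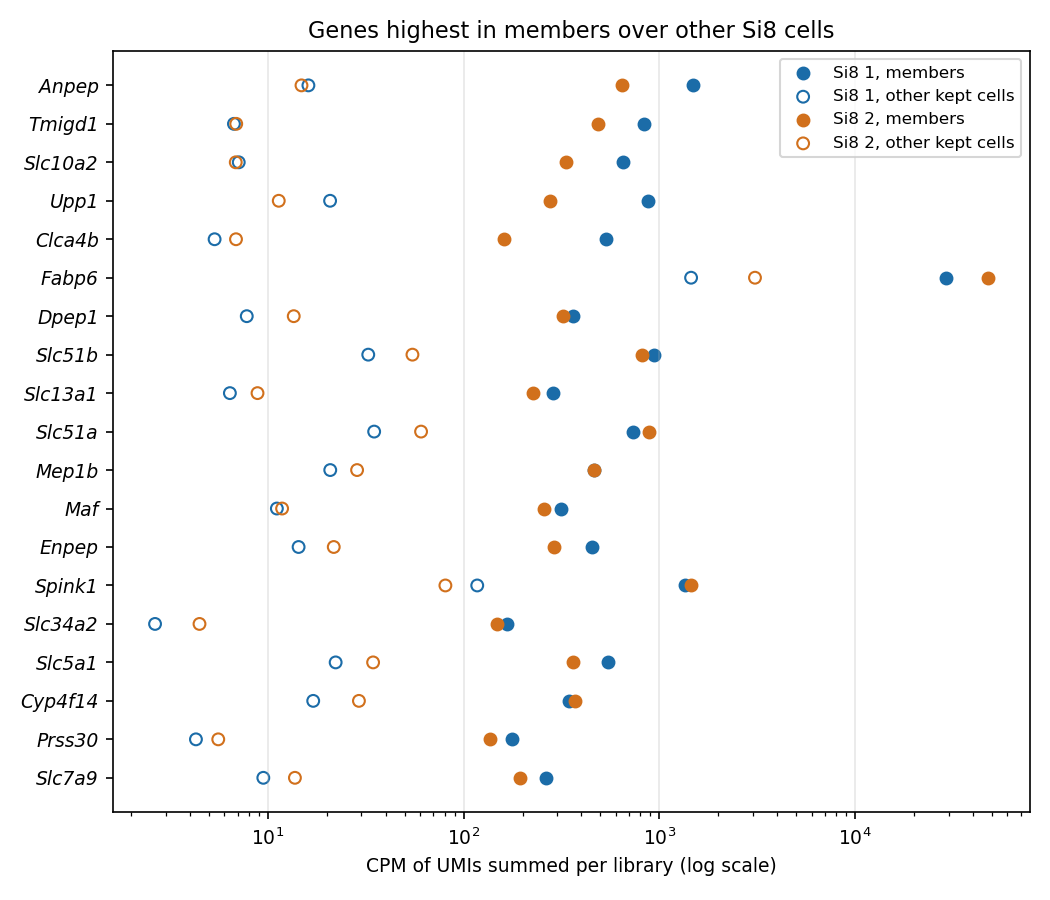
Genes among the 20 with the highest mean fold are listed from the top, with CPM on a log axis. Filled points are members and open points other kept cells of Si8 replicate 1 (blue) and replicate 2 (orange), and in each gene both filled points lie to the right of both open ones, Fabp6 being the farthest right.

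Bile acid handling was represented from uptake to export. Slc10a2, the apical sodium-dependent bile acid transporter (ENSMUSG00000023073, chromosome 8, 5083219 to 5105351), stood at 656 against 7.100 CPM in replicate 1 and 335 against 6.85 in replicate 2. The subunits of the basolateral exporter were both high, Slc51a at 731 against 34.9 and 887 against 60.6 CPM and Slc51b at 940.2 against 32.6 and 812 against 54.8 CPM. Nr1h4, the bile acid receptor FXR, stood at 148 against 40.6 and 133 against 30.7 CPM. Of the list's measured genes, 5 of 6 were at least 2-fold higher in both libraries and 0 lower, with a median log2 fold of 3.96. Abcc3, another exporter, was at 61.2 against 42.4 and 45.7 against 31.97 CPM and did not reach 2-fold.

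Of measured brush border hydrolases outside the rule, 10 of 10 were at least 2-fold higher in both libraries (median log2 fold 3.57). Beside Anpep, Enpep and Mep1a these included Mep1b, the other meprin subunit, at 465 against 20.8 and 461 against 28.6 CPM. Mgam, the maltase-glucoamylase, was at 616 against 75.95 and 514 against 144 CPM. Dpp4, a dipeptidyl peptidase, stood at 205 against 10.8 and 128 against 13.1 CPM. Microvillus structure gave 15 of 18 higher, with a median log2 fold of 1.76. There the actin-bundling protein Vil1 stood at 883 against 260.1 and 813 against 231 CPM, and the microvillar cadherin Cdhr5 at 1124 against 334 and 603 against 224 CPM.

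Lipid absorption and lipoprotein genes were higher in 15 of 19 and lower in 1 (median log2 fold 1.84), not counting Apoa1 and Apoa4 of the rule. Fabp2, the intestinal fatty acid binding protein, stood at 4352 against 1071 and 2369.6 against 1083 CPM in the summed counts, and a few members carried this difference. The 3 members with the most Fabp2 UMIs held 58.4% and 46.2% of them. The median member had 11.96 and 11.3 Fabp2 UMIs per 10000 against 10.5 and 10.8 in other cells. With every cell thinned to 2000 UMIs, Fabp2 was detected in 81.8% of members against 79.3% of other cells and in 80.4% against 79.6%. Apob, the scaffold of chylomicrons, was at 285 against 7.61 and 163 against 15.5 CPM, and its loading factor Mttp at 162 against 7.100 and 141 against 10.8 CPM. The cholesterol transporter Npc1l1 stood at 195 against 25.8 and 147 against 25.3 CPM. The gene that went the other way was Clps, the colipase, at 3.602 against 92.5 and 12.5 against 221 CPM.

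Sugar genes were higher in 5 of 8, among them Slc5a1, the sodium-glucose cotransporter, at 544 against 22.2 and 364 against 34.5 CPM. Amino acid and peptide transport gave 7 of 9 higher and 1 lower. Slc6a19, the main neutral amino acid carrier, stood at 198 against 0.702 and 63.4 against 0.838 CPM. Slc7a9 and Slc3a1, the subunits of the cystine and dibasic amino acid carrier, stood at 263 against 9.48 and 193 against 13.7 CPM, and at 173 against 9.52 and 80.03 against 8.47 CPM. Slc1a5, a glutamine carrier, was lower at 21.6 against 82.1 and 25.98 against 68.6 CPM. Vitamin, metal and nucleoside genes were higher in 7 of 12, among them Cubn and Amn, which form the receptor for vitamin B12 with intrinsic factor. Cubn stood at 61.2 against 0.351 and 41.6 against 0.305 CPM.

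Of measured absorptive transcription factors, 2 of 16 were at least 2-fold higher in both libraries and 0 lower, with a median log2 fold of 0.39. Maf, a bZIP factor, was at 313 against 11.1 and 257 against 11.8 CPM, and Nr1h4 was the other. Hnf4a, a nuclear receptor of the epithelium, was at 223 against 119 and 212 against 130.1 CPM, and Cdx2, the intestinal homeobox factor, at 86.5 against 87.97 and 164 against 111 CPM. Neither of these reached 2-fold in either library.

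Genes of the villus base and of surface defence were also high. Reg3b and Reg3g, secreted antimicrobial lectins, stood at 39765 against 7928 and 36179 against 4229.7 CPM, and at 22121 against 9378 and 16131 against 4697 CPM. Ccl25, a chemokine of the small intestine, was at 371 against 58.05 and 805 against 141 CPM. By list, 12 of 19 surface defence genes, 6 of 10 villus bottom genes, 6 of 6 villus middle genes and 3 of 10 villus tip genes were at least 2-fold higher in both libraries, and 0 were lower. The villus tip genes were Krt20, Pmp22 and Clca4a, and the zone lists share genes with the transport and defence lists. MHC class II antigen presentation gave 4 of 7 higher, with the invariant chain Cd74 at 1340.0 against 425 and 993 against 411 CPM and H2-Aa at 399.9 against 71.6 and 290.0 against 77.3 CPM. Xenobiotic metabolism gave 9 of 14 higher and 1 lower (Gstm1), with the carboxylesterase Ces2e at 360.2 against 20.8 and 419.9 against 42.97 CPM. Of the colonocyte list, 6 of 6 measured genes were higher, namely Muc3, Saa1, Tmigd1, Ceacam20, Car4 and Slc26a3. For Saa1, 3 members held 52.2% and 62.1% of the UMIs, and the median member had 6.45 and 0 per 10000. Membrane mucins gave 2 of 5 and fatty acid oxidation 2 of 15 higher, and dissociation stress and mitochondrially encoded genes gave 0 of 15 and 0 of 12 in either direction.

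Genes lower in members included markers of other epithelial classes. Of measured Paneth markers, 10 of 10 were at least 2-fold lower in both libraries, and the list summed to 2475 against 24470.2 CPM in replicate 1 and 1958 against 45036 in replicate 2. The lysozyme Lyz1 was at 46.8 against 1824 and 221 against 4049 CPM. Among the 10 lowest genes were Gm14851, Defa21, Defa22, Gm21002, Gm15284, AY761184, Defa20, Defa5 and Gm15308, with mean log2 folds from -6.07 to -4.72. Defa names here are Paneth defensins, many of them near-identical copies, so their separate values are uncertain. Among cells under 10000 UMIs these genes had mean log2 folds from -2.37 to -1.06. Cycling markers were lower in 8 of 9, with Mki67 at 0 against 36.5 and 10.4 against 70.4 CPM. Goblet markers were lower in 7 of 15 and higher in 0. Agr2, a folding enzyme of mucin synthesis, was at 2313 against 23721 and 8512 against 18096 CPM, and Spink4, a secreted protease inhibitor, at 7136 against 24872 and 6265 against 18063 CPM. Zg16, Muc2, Tff3, Fcgbp and Clca1, which code for secreted mucus proteins, were among the 8 that did not reach 2-fold in both.

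**Figure D3:**
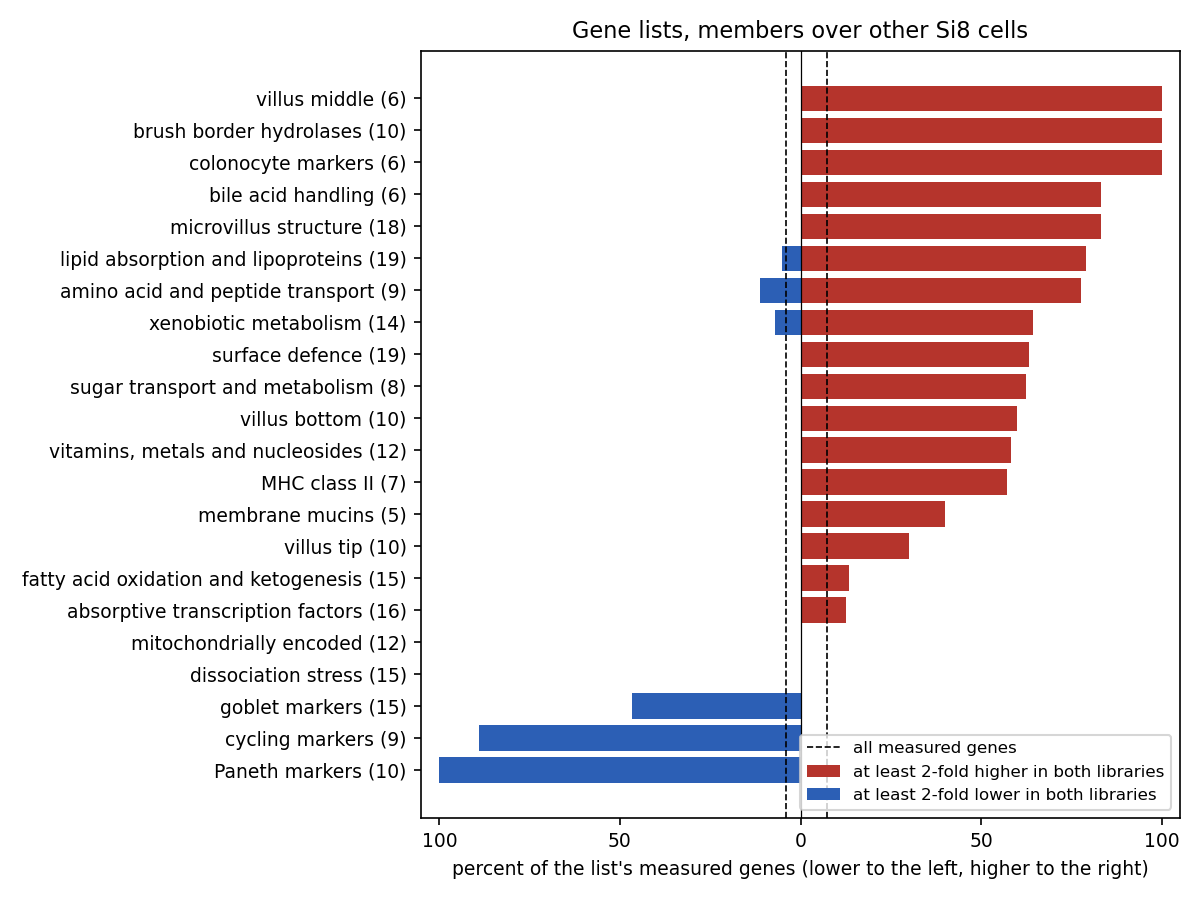
Bars give the percent of each list's measured genes (number in brackets, lists of 5 or more) that were at least 2-fold higher (red, right) or lower (blue, left) in members than in other Si8 cells in both libraries. Dashed lines mark 7.27% higher and 4.11% lower over all measured genes, and Paneth and cycling markers reach farthest to the left.

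Members were next ranked by the rule sum within each library and split into 3 ranges, of 11 cells each in replicate 1 and of 16, 15 and 15 in replicate 2. Of 949 genes at 100 CPM or more in members of both libraries, 42 (4.43%) were at least 2-fold higher in the upper than in the lower range in both libraries and 44 (4.64%) at least 2-fold lower. Replicate 1 alone gave 348 such genes in all and replicate 2 alone 107. The ranges were set on these same cells, so the values are a description. Fabp2 had the highest mean fold in the summed counts, going from 579 through 940.3 to 13451 CPM in replicate 1 and from 766 through 1401 to 6065 CPM in replicate 2. In the upper range 3 cells held 66.95% and 68.2% of the Fabp2 UMIs. The median cell went from 6.21 to 53.7 Fabp2 UMIs per 10000 in replicate 1 and from 8.12 to 15.1 in replicate 2, which is under 2-fold in replicate 2. Sepp1, the selenium carrier selenoprotein P, went from 134 to 2478 and from 102 to 802 CPM. Anpep went from 524 to 2746 and from 259 to 1419 CPM. The median cell went from 2.37 to 25.2 and from 1.94 to 13.7 Anpep UMIs per 10000. Pmp22, Clca4b, Saa1, Tmigd1 and Dpep1 completed the 8 highest, and for Saa1 3 cells of the upper range held 58.1% and 68.5% of its UMIs.

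By list, 5 of 8 brush border hydrolases, 8 of 14 microvillus genes and 3 of 4 MHC class II genes were at least 2-fold higher in the upper range in both libraries. H2-Aa went from 167 to 689.8 and from 155 to 550.3 CPM. In bile acid handling the count was 0 of 5 in the summed counts, with Fabp6 going from 27200.4 to 28600.3 and from 40218 to 64055 CPM. In the lower range of replicate 1, however, 3 cells held 82.6% of the Fabp6 UMIs. The median cell went from 26.04 to 236.7 Fabp6 UMIs per 10000 in replicate 1 and from 417.8 to 715.35 in replicate 2. Slc10a2 went from 568 to 843 and from 115 to 798 CPM. Slc51b went from 780 to 1137 and from 472 to 1403 CPM. Both of these passed 2-fold in replicate 2 only. Goblet markers gave 0 of 11 in either direction in the summed counts. There Tff3 went from 92272 to 83220.5 and from 29347 to 27909.9 CPM. The median cell's goblet sum, however, fell from 3478 through 2406 to 1567 in replicate 1. In replicate 2 it went from 430 through 1289 to 321, so the middle range was highest. The 8 lowest were Mt1, a metallothionein, Oat, a mitochondrial aminotransferase, and 6 ribosomal protein genes. Oat went from 568 to 25.5 and from 1233 to 373 CPM, and Rps12 from 1269.8 to 102 and from 3009 to 1399 CPM. Ribosomal protein genes together took 6.69% of UMIs in the lower and 1.34% in the upper range of replicate 1, and 15.6% and 7.93% in replicate 2. Malat1 moved with the ranges from 35877 to 71482 and from 7198 to 9949 CPM, and its part in these differences was not tested.

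**Figure D4:**
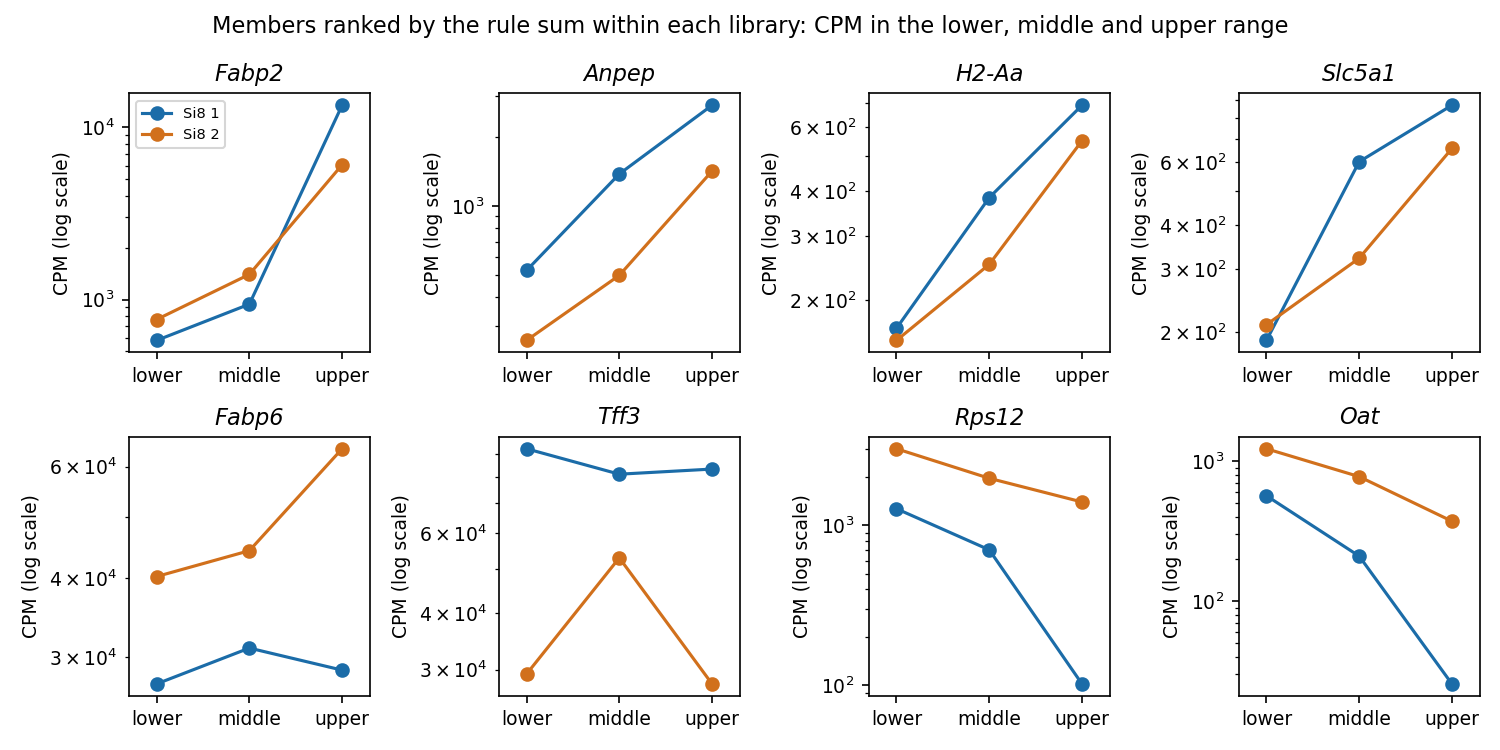
CPM of the summed cells (log axes, a separate range for each gene) in members of the lower, middle and upper range of the rule sum, for Si8 replicate 1 (blue) and replicate 2 (orange). Fabp2, Anpep, H2-Aa and Slc5a1 climb in both libraries, and Rps12 and Oat fall in both. In these sums Fabp6 and Tff3 differ by less than 2-fold between the lower and upper ranges.

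Members were also split at the median goblet sum. The goblet-poor side had 17 and 23 members with median goblet sums of 708 and 146, and the goblet-rich side 16 and 23 members with medians of 3639 and 1289. Of 945 genes outside both sums, 25 (2.65%) were at least 2-fold higher on the goblet-rich side in both libraries and 7 (0.741%) lower. Clca1, a metalloprotease of mucus, had 2919.6 and 15869 CPM in replicate 1 and 1014 and 5788 in replicate 2 on the poor and rich sides. Sct, the hormone secretin, had 319 and 1148 CPM in replicate 1 and 92.4 and 461 in replicate 2. The 7 lower genes were Reg3a, Mgst1, Pycard, Ccl25, Fam213b, Khk and Cd74, with Ccl25 at 552 and 58.9 CPM in replicate 1 and 1084 and 519.8 in replicate 2. Fabp6 had 40664 and 9137 CPM in replicate 1 and 57629 and 37700.4 in replicate 2, so its goblet-rich level was above that of the other kept cells of the same library in both. Slc10a2 had 939 and 167 CPM in replicate 1 and 361 and 307 in replicate 2, again above the other kept cells on both sides. Mitochondrial transcripts took 6.35% and 1.61% of UMIs on the 2 sides of replicate 1 and 6.75% and 4.76% in replicate 2, and their part was not tested.

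The last comparison asked how these cells differed from absorptive cells of DC. The colonic comparison cells were chosen by a rule of the same form with 4 colonocyte genes (Aqp8, Car4, Slc26a3 and Ceacam20), which 48 and 131 kept cells of DC replicates 1 and 2 met, and 2 and 1 kept Si8 cells. Members held 277604 and 962170 UMIs in all and colonic cells 326261 and 1099148. UMIs were summed per library and tested with edgeR's quasi-likelihood test (2 against 2 sums, Benjamini-Hochberg adjustment over all tested genes, threshold 0.05). Of 5801 tested genes outside both rules 635 (10.9%) changed, 296 (5.1%) higher and 339 (5.84%) lower in members. Leaving out Si8 replicate 1 gave 1254 calls and leaving out DC replicate 2 gave 371. Region and library cannot be told apart. The colonic cells had median mitochondrial shares of 13.5% and 11.6% and median goblet sums of 461 and 26, and the part of these differences in the calls was not tested, apart from 1 comparison. With only cells of a goblet sum under 1000 on both sides, a choice made after the data were seen, 1009 genes were called, 584 of them among the 635.

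The genes highest in members over colonic cells included antimicrobial, bile acid and brush border genes. Reg3b had 39765 and 36179 CPM in members and 0 UMIs in both colonic sums, at least 18042-fold higher against a floor of 3 UMIs over the group (edgeR adjusted p = 7.94e-05). Lgals2, an intracellular lectin, had 2579 and 4859 CPM and 0 UMIs, at least 1767-fold higher. Values follow the order of the replicates in both groups. Anpep, with 1488 and 642 CPM, was at least 506-fold higher and Slc51a, with 731 and 887 CPM, at least 384-fold higher. Slc13a1, a sulfate carrier, and Defa24, a Paneth defensin, were also without a UMI in colonic cells, and Defa24 was lower in members than in other Si8 cells. Fabp6 stood at 29092 and 47788 CPM against 6.13 and 2.73, an edgeR log2 fold change of 13.41 ± 1.05 (SE). Reg3g had 22121 and 16131 CPM against 0 and 0.9098, the latter a single UMI. Every gene named in this paragraph had 5 or fewer UMIs in the colonic sums and reached the test only through the members. Their folds and p-values are therefore a description.

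Of the 339 genes lower in members, 89 had 3 or fewer UMIs in the member sums. Such genes reached the test only through the colonic cells. Among them were the 8 lowest genes, which had no UMI in members of either library. They included Car1 and Car2, cytosolic carbonic anhydrases, at 3463 and 3415 CPM and at 509 and 689.6 CPM in colonic cells, the first at least 1421-fold lower in members. Hoxb13, the homeobox gene of the posterior gut, stood at 417 and 501 CPM in colonic cells and was at least 189.7-fold lower. Sycn, Tgm3, Wfdc2, Fxyd4 and Atp12a were the other 5. The 16 genes were picked among called genes whose groups did not overlap, so their lack of overlap was set by the choice. Their edgeR adjusted p-values ran from 7.94e-05 to 0.000149.

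**Figure D5:**
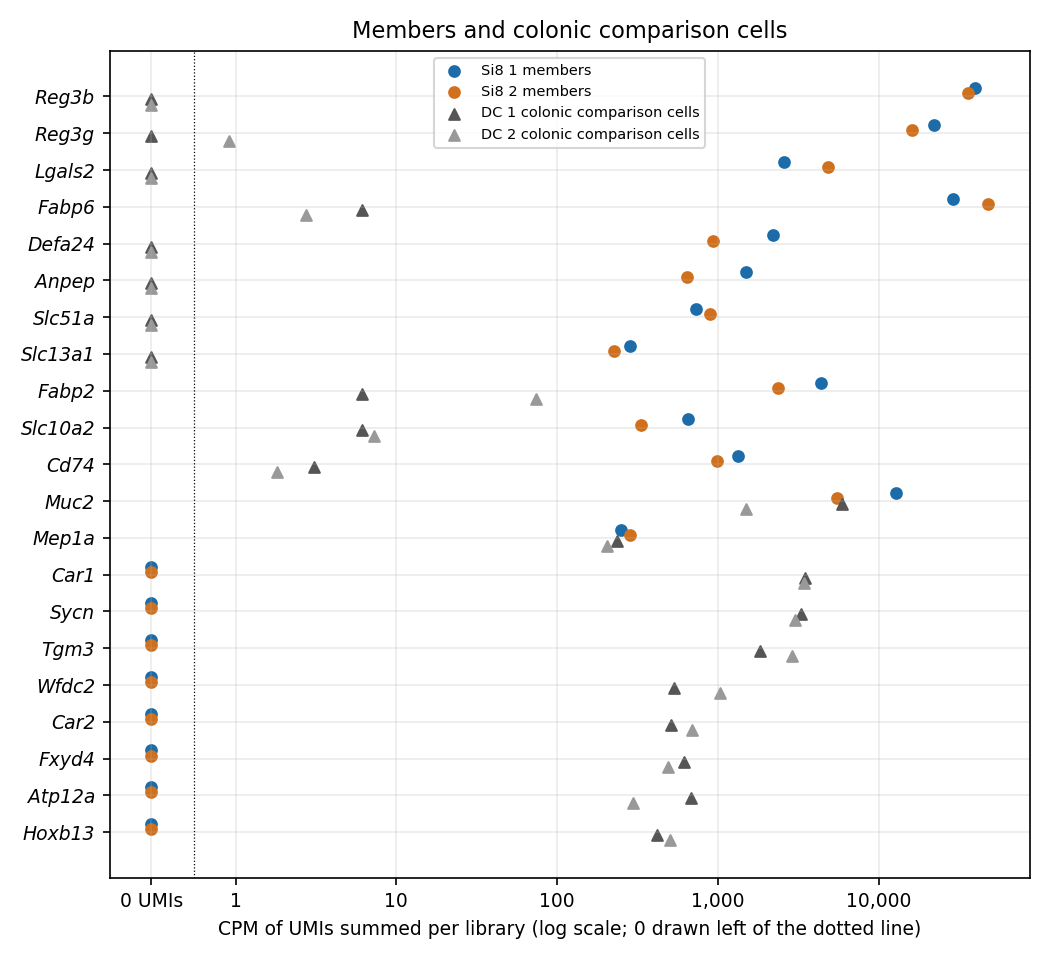
CPM on a log axis of the 8 genes highest and the 8 lowest in members against colonic comparison cells, with 5 further genes between them. Circles are members of Si8 replicates 1 and 2, triangles the colonic cells of DC replicates 1 and 2, and sums without a UMI are drawn left of the dotted line, while the 4 sums of Mep1a lie close together.

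By function, lipid absorption genes rose in 15 and fell in 2 (Plin2, Clps) of 20 tested, and bile acid genes rose in 5 and fell in 1 (Slco2a1, a prostaglandin carrier) of 7. Fabp2 stood at 4352 and 2369.6 CPM against 6.13 and 73.7 (log2 fold change 6.42 ± 0.91, edgeR adjusted p = 0.000877), and Slc10a2 at 656 and 335 CPM against 6.13 and 7.28. Brush border hydrolases rose in 9 and fell in 1 of 12. The gene that fell was Nt5e, an ecto-nucleotidase, without a UMI in members and at 101 and 84.6 CPM in colonic cells. Mep1a did not pass the test, with 249 and 284 CPM against 236 and 205 (log2 fold change 0.43 ± 0.39, edgeR adjusted p = 0.601). The median log2 fold change was 3.17 for lipid, 4.62 for bile acid and 4.63 for hydrolase genes, and 0.01 over all tested genes. Of the genes that rose, 5 of the 15 lipid, 1 of the 5 bile acid and 4 of the 9 hydrolase genes had 3 or fewer UMIs in the colonic sums, as did 97 of the 296 genes higher over all tested. Such genes reached the test only through the members, so these counts and medians are a description.

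Amino acid and peptide carriers rose in 7 and fell in 3 of 11, and those that fell were Slc15a1, Slc1a5 and Slc36a1. Slc15a1, the di- and tripeptide carrier, stood at 43.2 and 20.8 CPM against 218 and 87.3. Its edgeR adjusted p of 0.0372 was 0.107 without Si8 replicate 2 and 0.212 without DC replicate 1. MHC class II genes rose in 6 of 7, with Cd74 at 1340.0 and 993 CPM against 3.07 and 1.82 and H2-Ab1 at 457 and 393 CPM against 27.6 and 14.6. Ctss, a lysosomal protease that processes the invariant chain, fell, at 93.7 and 86.3 CPM against 530.2 and 443. Surface defence genes rose in 8 and fell in 8 of 22. Among those that fell, Sprr2a3, a small proline-rich barrier protein, stood at 166 and 83.1 CPM against 2198 and 1909. Of the genes that rose, 3 of the 7 carriers and 4 of the 6 MHC class II genes had 3 or fewer colonic UMIs. The same held for 5 of the 8 surface defence genes that rose. Such genes reached the test only through the members, so these counts are a description.

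Absorptive transcription factors rose in 5 (Maf, Nr1h4, Isx, Gata5, Hnf4g) and fell in 3 (among them Tfcp2l1 and Ppargc1a) of 20. Of the 5 that rose, 2 had 3 or fewer colonic UMIs and reached the test only through the members. Maf was at 313 and 257 CPM against 3.07 and 4.55 (log2 fold change 6.20 ± 0.56, edgeR adjusted p = 8.78e-05). Gata5, a zinc finger factor, stood at 57.6 and 55.1 CPM in members and had no UMI in colonic cells. Tfcp2l1, an epithelial factor of the CP2 family, stood at 25.2 and 22.9 CPM against 199 and 255. Nr1h4 stood at 148 and 133 CPM against 33.7 and 40.9, and its edgeR adjusted p went from 0.00807 to 0.0684 without DC replicate 1 and 0.0603 without DC replicate 2.

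Among other cell classes, Paneth markers had summed levels of 2475 and 1958 CPM against 24.5 and 10.01, below those of other Si8 cells given above. Each of the 7 that passed the test had 3 or fewer UMIs in the colonic sums. Goblet markers rose in 1 (Spink4) and fell in 0 of 14. Spink4 stood at 7136 and 6265 CPM against 2479.6 and 1591, and its edgeR adjusted p of 0.0482 was 0.2 without DC replicate 1 and 0.481 without DC replicate 2. Muc2 stood at 12896 and 5475 CPM against 5940.0 and 1493, with overlapping groups, and its edgeR adjusted p of 0.276 was 0.0138 without Si8 replicate 2. Tff3 stood at 85301 and 36508 CPM against 21308 and 5667. Its edgeR adjusted p of 0.105 passed the threshold at 0.0106 without Si8 replicate 1, 0.0499 without DC replicate 1 and 0.00249 without Si8 replicate 2. Mitochondrially encoded genes rose or fell in 0 of 12, at sums of 46066 and 57699.8 CPM against 122623 and 112433.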

How the data were processed

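The authors deposited raw UMI counts per gene and barcode for 4 single-cell 3' v2 libraries, made with Cell Ranger 2.1.1 on mm10 per the submitters' processing notes. No normalization had been applied. Barcodes under 500 genes or over 20% mitochondrial UMIs were left out. The members and the 28 gene lists (404 genes) were chosen with earlier results of these data known. Members were compared with other Si8 cells as CPM of UMIs summed per library, with no test. Members and colonic cells were compared with edgeR 4.0.16 (R 4.3.3, TMM, filterByExpr), which was tested on simulated data, and with DESeq2 1.42.0 as an alternative. The genes of both rules, 8 in all, stayed out of every count of calls. TMM factors were 0.886 and 1.01 for members and 1.05 and 1.07 for colonic cells. Over all tested genes the median log2 fold change was 0.01, and -0.13 where only library totals scaled the counts, when 250 of 636 calls were higher.

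Scrublet (scanpy 1.11.5) scored doublets. Its own threshold marked 14 and 0 cells of DC and 3 and 3 of Si8, too few to be of use, so doublets were kept, and an alternative removed the highest scores at 0.8% per 1000 cells. Named genes were the rule and marker genes, the 20 highest and 10 lowest folds at 100 CPM or more, up to 6 genes per list against other Si8 cells, and the 8 largest folds each way and up to 4 called genes per list against colonic cells. In the 3 ranges of the rule sum they were the 8 largest folds each way and up to 4 genes per list. The 8 genes each way against colonic cells were taken among called genes without overlap, at 100 CPM or more in the higher group. List genes beyond these numbers are named where they complete a count or go against their list, and were chosen after their values were seen. 1 UMI was worth 3.60 and 1.04 CPM in the member sums. Intervals and the floor of 3 UMIs cover counting error only. Coordinates are from GENCODE M21 by Ensembl identifier, and promoter windows from RefSeq (GRCm38.p6). Some items named by these rules are not reported here.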

Additional observations from a re-analysis of the deposited data

How the results depend on the processing

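The member share was 1.26% and 0.894% at a threshold of 20 per 10000, 0.795% and 0.939% with 3 of the 4 rule genes required, and 3.62% in Si8 replicate 2 at a threshold of 5. Genes 2-fold higher in members than in other Si8 cells fell to 140, and genes lower to 69, with 50 CPM added, and lower genes numbered 350 at a threshold of 20. Leaving out each library gave 421 to 616 higher and 217 to 798 lower genes, the larger counts without Si8 replicate 2. The ranges of the rule sum gave 86 genes, 35 with 2 ranges, and 107 to 348 with each library left out.

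Calls against colonic cells numbered 635, and 1008 without a filter on low counts, 1009 with goblet sums under 1000 (added after the data were seen), 151 with each cell thinned to 2000 UMIs, where 1329 genes could be tested, and 371 to 1254 with each library left out (1254 without Si8 replicate 1, 580 without DC replicate 1, 685 without Si8 replicate 2, 371 without DC replicate 2). Where 1 sum was left out, the lone sum was assumed to vary like the other group. DESeq2 called 503. The fit with the replicate number as a block called 1024. Nothing in the labels says that the numbers pair the samples, and deviations of same-numbered sums correlated at r = 0.17 over 5808 genes. Except where fewer genes or sums were tested, the cause of these shifts was not tested.

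Of the values of named genes under the alternatives, 865 of those against colonic cells kept their side of the threshold and direction, 59 lost the call, 16 gained it and 0 reversed. Against other Si8 cells 0 reversed, 238 moved by less than the spread between the 2 libraries and 72 by more. Depth limits the members of Si8 replicate 1 most, with 277604 UMIs in all.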
